A study of Mus musculus with 18 samples.

Results

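The 10 genes described here encode the enzymes of the pentose phosphate pathway: *G6pdx*, *H6pd*, *Pgls* and *Pgd* of the oxidative branch, *Rpia*, *Rpe*, *Tkt* and *Taldo1* of the non-oxidative branch, and *Prps1* and *Prps2*, the synthetases that carry its product onward. They were chosen by gene symbol and are 10 of the 55491 rows of a gene count table from mouse tail tendon fibroblasts (TFs), and all 10 were among the 16174 genes with enough counts to be tested. The TFs had crawled out of tail tendons into collagen gels, were passaged on plastic, and were kept for 4 days in 20% O2 (normoxia) or 1% O2 (hypoxia), with 3 poly-A RNA-seq libraries in each of 6 groups. Ctrl TFs are labelled wild-type and came from Cre-negative mice of the same floxed *Hif1a* colony, cKO TFs were *Hif1a* flox/flox with Cre driven by *Scleraxis* (ScxCre), and the last arm was Ctrl TFs treated with Cre gesicles, vesicles that carry Cre protein into cells. The mice were 4 to 6 months old, of both sexes and of mixed background, ScxCre acts in the tendon lineage before the cells are isolated while gesicles act on the cultured cells, and the libraries were not traced here to single animals. The comparisons ask how the transcripts of each enzyme responded to low O2 and whether that response or the level differed with the genotype or the gesicles.

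The pentose phosphate pathway branches from glycolysis at glucose 6-phosphate. Its oxidative branch makes NADPH, which keeps glutathione and thioredoxin reduced and feeds lipid synthesis, and yields ribulose 5-phosphate. The non-oxidative branch interconverts this sugar phosphate with intermediates of glycolysis in reactions that run either way, and the PRPP synthetases turn ribose 5-phosphate into phosphoribosyl pyrophosphate (PRPP) for nucleotides and NAD. Fibroblasts use the pathway for growth and for defence against oxidants, and several of its genes are known targets of the transcription factor NRF2.

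Averaged over the 3 arms, *Pgd* (6-phosphogluconate dehydrogenase, the second NADPH-making step) and *Taldo1* (transaldolase) rose in 1% O2 by 1.47-fold and 1.59-fold. *H6pd* rose by 1.38-fold, with a pass that held in only 6 of the 18 fits that each left out 1 library. In the same average *G6pdx* (glucose-6-phosphate dehydrogenase, the entry enzyme) and *Prps1* were lower in 1% O2 by 1.28-fold and 1.33-fold. *H6pd*, *G6pdx* and *Prps1* did not pass the edgeR test in any single arm, and *G6pdx* overlapped between O2 levels in Ctrl TFs. *Pgls*, *Rpia*, *Rpe*, *Tkt* and *Prps2* did not pass the test in the average or in any single arm. No member passed the edgeR test for a different O2 response in cKO or gesicle-treated TFs, or for a different level against Ctrl TFs at either O2 level. With DESeq2 *Pgd* passed as lower in cKO than in Ctrl TFs in 1% O2 (−0.41 on the log2 scale, adjusted p = 0.00242).

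The promoters of the 4 genes with the smallest adjusted p are printed to show where short elements lie in genes that went in opposite directions. Each is the RefSeq window of 300 bases, from 250 before to 50 after the transcription start, on GRCm38.p6 and read 5′ to 3′ on the gene's own strand. *Pgd* is at chr4:149166656-149166955 on the minus strand, *Taldo1* at chr7:141391910-141392209 on the plus strand, *G6pdx* at chrX:74428831-74429130 on the minus strand and *Prps1* at chrX:140456353-140456652 on the plus strand. Capitals mark matches on either strand to ACGTG or GCGTG, the cores of the hypoxia response element that HIF binds, or to TGACNNNGC, the core of the antioxidant response element that NRF2 binds. ACGTG and GCGTG do not overlap each other in these windows.
Pgd: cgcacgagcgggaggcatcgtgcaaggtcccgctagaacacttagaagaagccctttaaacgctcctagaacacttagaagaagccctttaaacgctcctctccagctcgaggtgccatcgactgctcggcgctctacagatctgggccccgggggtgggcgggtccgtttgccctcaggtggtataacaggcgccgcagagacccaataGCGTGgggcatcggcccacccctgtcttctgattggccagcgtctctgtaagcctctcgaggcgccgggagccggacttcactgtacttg
Taldo1: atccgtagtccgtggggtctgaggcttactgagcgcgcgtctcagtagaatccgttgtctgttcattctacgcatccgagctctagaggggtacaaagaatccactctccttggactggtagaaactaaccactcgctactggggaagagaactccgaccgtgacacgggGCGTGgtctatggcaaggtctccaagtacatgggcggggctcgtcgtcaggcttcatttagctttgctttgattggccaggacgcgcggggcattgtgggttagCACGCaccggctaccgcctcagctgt
G6pdx: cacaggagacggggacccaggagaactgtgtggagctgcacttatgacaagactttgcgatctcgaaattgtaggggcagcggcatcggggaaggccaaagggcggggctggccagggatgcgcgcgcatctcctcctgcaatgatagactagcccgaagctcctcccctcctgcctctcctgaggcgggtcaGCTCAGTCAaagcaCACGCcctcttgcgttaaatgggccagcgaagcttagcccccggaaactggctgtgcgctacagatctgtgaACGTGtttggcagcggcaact
Prps1: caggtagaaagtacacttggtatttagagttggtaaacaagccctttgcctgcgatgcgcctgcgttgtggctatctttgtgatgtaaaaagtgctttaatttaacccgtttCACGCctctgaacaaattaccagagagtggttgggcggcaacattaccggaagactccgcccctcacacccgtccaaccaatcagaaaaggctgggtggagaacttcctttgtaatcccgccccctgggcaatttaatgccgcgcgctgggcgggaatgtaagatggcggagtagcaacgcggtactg
A GCGTG match began at position −40 in *Pgd*, counted with the start base as 1, at positions −80 and 25 in *Taldo1*, at −43 in *G6pdx* and at −138 in *Prps1*, so both genes that rose and both that fell held one. *G6pdx* also held ACGTG at position 30 and TGACNNNGC at −57, and the latter was at position 4 of a second *Pgd* window. Of the first windows of the 10 members, 8 held ACGTG or GCGTG, all but those of *H6pd* and *Rpe*, and the *H6pd* window lies away from the gene start in the annotation used for the counts. Over all 32851 mouse promoter windows of this length, 43.8% held either core, 32.4% held GCGTG, 19.6% held ACGTG and 12.4% held TGACNNNGC. The median GC content was 60.5% in the members' windows and 52.7% in all windows, and a match is a description of letters and not of binding.

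Libraries held 6857558 to 51806453 counts, so that 3 counts correspond to 0.0579 to 0.437 CPM, the scale used below (a library's counts scaled by its TMM-adjusted total). The shallowest library was cKO replicate 1 in 1% O2. Of the tendon fibroblast markers, *Scx* stood at 6.19 to 21.5 CPM and *Tnmd* at 35.0 to 210 CPM in every library. *Hif1a* itself stood at 294 to 503 CPM and was not lower in the libraries labelled cKO (cKO against Ctrl, log2 fold change 0.11, adjusted p = 0.693 in 20% O2, and 0.08, adjusted p = 0.778 in 1% O2) or in gesicle-treated TFs (0.06 and −0.13, adjusted p = 1 in both). Gene-level counts do not show whether the floxed exon was lost, so that part of the genotype could not be checked from them. The Cre sequence had 15 counts over the 6 cKO libraries, in 5 of them, and none in Ctrl libraries. By qPCR of tail TFs the paper reports reduced *Hif1a* expression in cKO cells. The X-inactivation transcript *Xist* was at 0 in replicate 1 of all Ctrl and gesicle groups and in cKO replicates 2 and 3, and at 12 to 23.5 CPM in the other libraries. At each O2 level *Xist* was thus present in more Ctrl than cKO libraries, so sex, as read from *Xist*, was not balanced between these genotypes. *G6pdx*, *Prps1* and *Prps2* are on the X chromosome. All differences are log2 fold changes from edgeR's quasi-likelihood test over all 16174 genes, "passed" means a Benjamini-Hochberg adjusted p under 0.05, and "called" means passed with a fold change of at least 1.5.

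Per kilobase of exon, the transcripts spanned a wide range of levels in TFs, as the plot of levels per kilobase shows. *Taldo1* was highest at a mean of 99.5 CPM per kilobase over the 18 libraries, followed by *Pgd* at 62.2. The group means of *Taldo1* and *Pgd* overlapped in range, but *Taldo1* was above *Pgd* in every group. *Rpe* (32.5), *H6pd* (28.8), *Prps2* (27.5), *Tkt* (25.8) and *G6pdx* (25.2) formed a middle group, within which the group means of neighbouring genes overlapped in range. *Pgls* (17.3) and *Prps1* (14.9) followed, again with overlapping group means, and *Rpia*, the isomerase that makes ribose 5-phosphate, was at 0.278 CPM per kilobase. The exon length is that of all annotated exons joined, which understates the level of a gene that uses a short isoform.

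**Figure D1:**
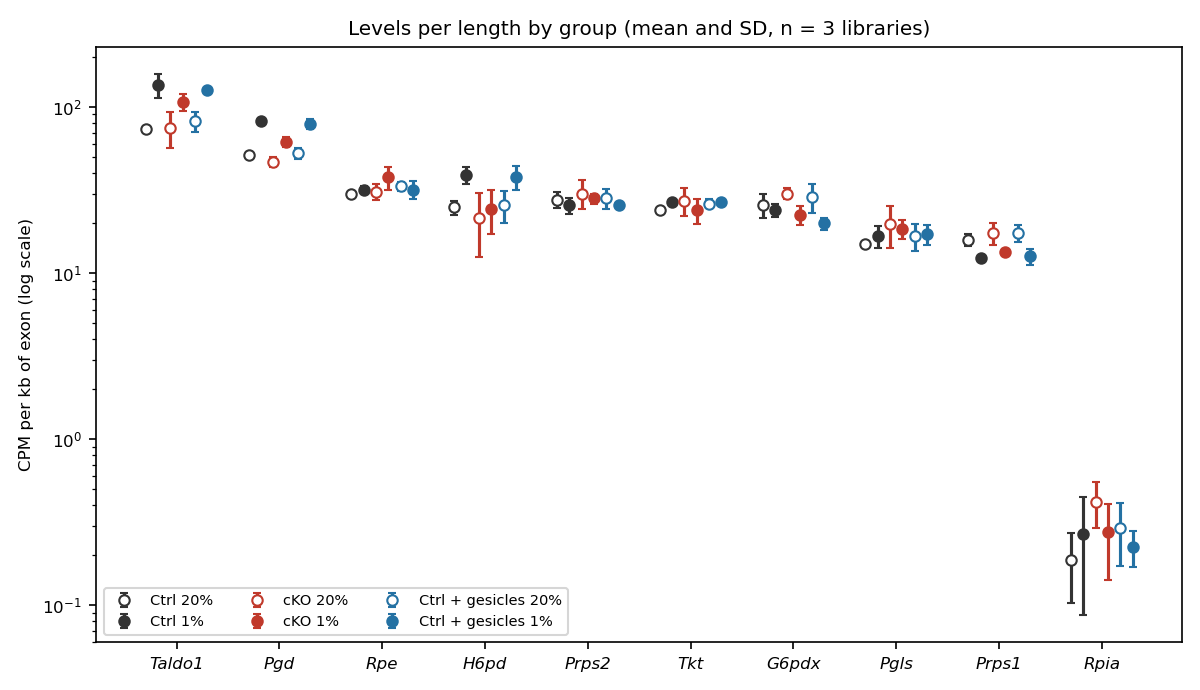
Level of each pathway gene per kilobase of exon (CPM per kilobase, log axis) in the 18 libraries, as group means ± SD (n = 3) in the 6 groups, coloured by arm and filled for 1% O2. *Taldo1* and *Pgd* lie above the other genes with means of 99.5 and 62.2 CPM per kilobase, and *Rpia* lies far below them at 0.278.

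In the oxidative branch, *Pgd* had the most uniform response. In Ctrl TFs it stood at 339, 338 and 314 CPM in 20% O2 and at 557, 518 and 518 CPM in 1% O2. In cKO TFs it stood at 281, 298 and 323 CPM in 20% O2 and at 388, 430 and 374 CPM in 1% O2. In gesicle-treated TFs it stood at 371, 328 and 324 CPM in 20% O2 and at 467, 538 and 519 CPM in 1% O2. Every library in 1% O2 was above every library in 20% O2, across arms as well as within them, a pattern that 2.41% of all genes tested showed. The rise was called in Ctrl TFs (log2 fold change 0.68 ± 0.10 SE, 1.61-fold, adjusted p = 0.00074). It passed the test at 0.40 (1.32-fold, adjusted p = 0.0276) in cKO TFs and at 0.57 (1.49-fold, adjusted p = 0.0039) in gesicle-treated TFs, both under the fold change minimum. Averaged over the arms it was 0.55 ± 0.055 (SE, 95% interval 0.44 to 0.67, adjusted p = 5.74e-06), and *Pgd* was higher in 1% O2 in 9 of 9 same-numbered pairs of libraries. Pairs here and below are matched by number alone. Same-numbered Ctrl and gesicle libraries deviated together from their group means, so the 9 pairs are not 9 independent replicates. The pass in cKO TFs was lost without cKO replicate 1 in 20% O2 (adjusted p = 0.108), without cKO replicate 1 in 1% O2 (0.0615) or without cKO replicate 2 in 1% O2 (0.113), and in a fit of these 6 libraries alone (0.242).

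*G6pdx* went the other way. Ctrl TFs had 78.2, 93.2 and 66.8 CPM in 20% O2 and 75.1, 66.7 and 78.9 CPM in 1% O2, which overlap. The cKO TFs had 101, 88.3 and 89.0 CPM in 20% O2 against 78.6, 60.5 and 68.4 CPM in 1% O2, with every library in 1% O2 the lower. Gesicle-treated TFs had 74.3, 108 and 83.5 CPM against 55.5, 62.7 and 65.4 CPM, again without overlap. Averaged over the arms *G6pdx* fell (−0.36 ± 0.09 SE, 95% interval −0.54 to −0.17, adjusted p = 0.0082), with the lower value in 1% O2 in 8 of 9 same-numbered pairs, the exception being Ctrl replicate 3. No single arm passed, at −0.11 in Ctrl (adjusted p = 0.772), −0.43 in cKO (0.131) and −0.54 in gesicle-treated TFs (0.0692). *Ikbkg*, which starts beside *G6pdx* on the other strand and contains 10.6% of the 50-base windows of its transcripts, rose in the same average (0.78, adjusted p = 7.3e-06), and reads from shared exons may be split between the genes by the counting.

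The ratio of *Pgd* to *G6pdx* counts within a library needs no scaling between libraries. There were 2.78 to 4.99 *Pgd* counts per *G6pdx* count in 20% O2 and 4.94 to 8.57 in 1% O2. The ranges met only through gesicle replicate 1 in 20% O2 and cKO replicate 1 in 1% O2, and within each arm they did not overlap. The means were 4.22 ± 0.54 and 7.25 ± 0.62 in Ctrl, 3.26 ± 0.43 and 5.84 ± 1.13 in cKO, and 3.96 ± 0.99 and 8.30 ± 0.33 in gesicle-treated TFs (SD, n = 3 each).

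*H6pd* encodes the hexose-6-phosphate dehydrogenase of the endoplasmic reticulum, which makes NADPH in that compartment. It stood at 126, 120 and 143 CPM in 20% O2 and at 176, 219 and 216 CPM in 1% O2 in Ctrl TFs. In cKO TFs the values were 155, 62.3 and 121 CPM against 96.2, 118 and 169 CPM, and in gesicle-treated TFs 114, 121 and 168 CPM against 213, 218 and 162 CPM. Only the Ctrl groups did not overlap, and the cKO groups had the widest spread relative to the mean of any member above 10 CPM. No arm passed (0.65, adjusted p = 0.216, in Ctrl, 0.18, 0.732, in cKO and 0.56, 0.296, in gesicle-treated TFs), while the average did (0.47 ± 0.15 SE, adjusted p = 0.0382), with higher values in 7 of 9 pairs. The pass of the average held in 6 of the 18 fits that each left out 1 library, with an adjusted p of 0.0903 without cKO replicate 3 in 1% O2.

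*Pgls*, the lactonase between the 2 dehydrogenases of the branch, ranged from 53.4 to 98.4 CPM and did not pass in any comparison. Its averaged difference was 0.03 with a 95% interval of −0.20 to 0.26, so a 1.5-fold change (0.585 on the log2 scale) lies outside the interval. Its highest library was cKO replicate 2 in 20% O2. *Fam129c*, which contains 18.9% of the 50-base windows of *Pgls*, was at 0.284 to 1.99 CPM.

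**Figure D2:**
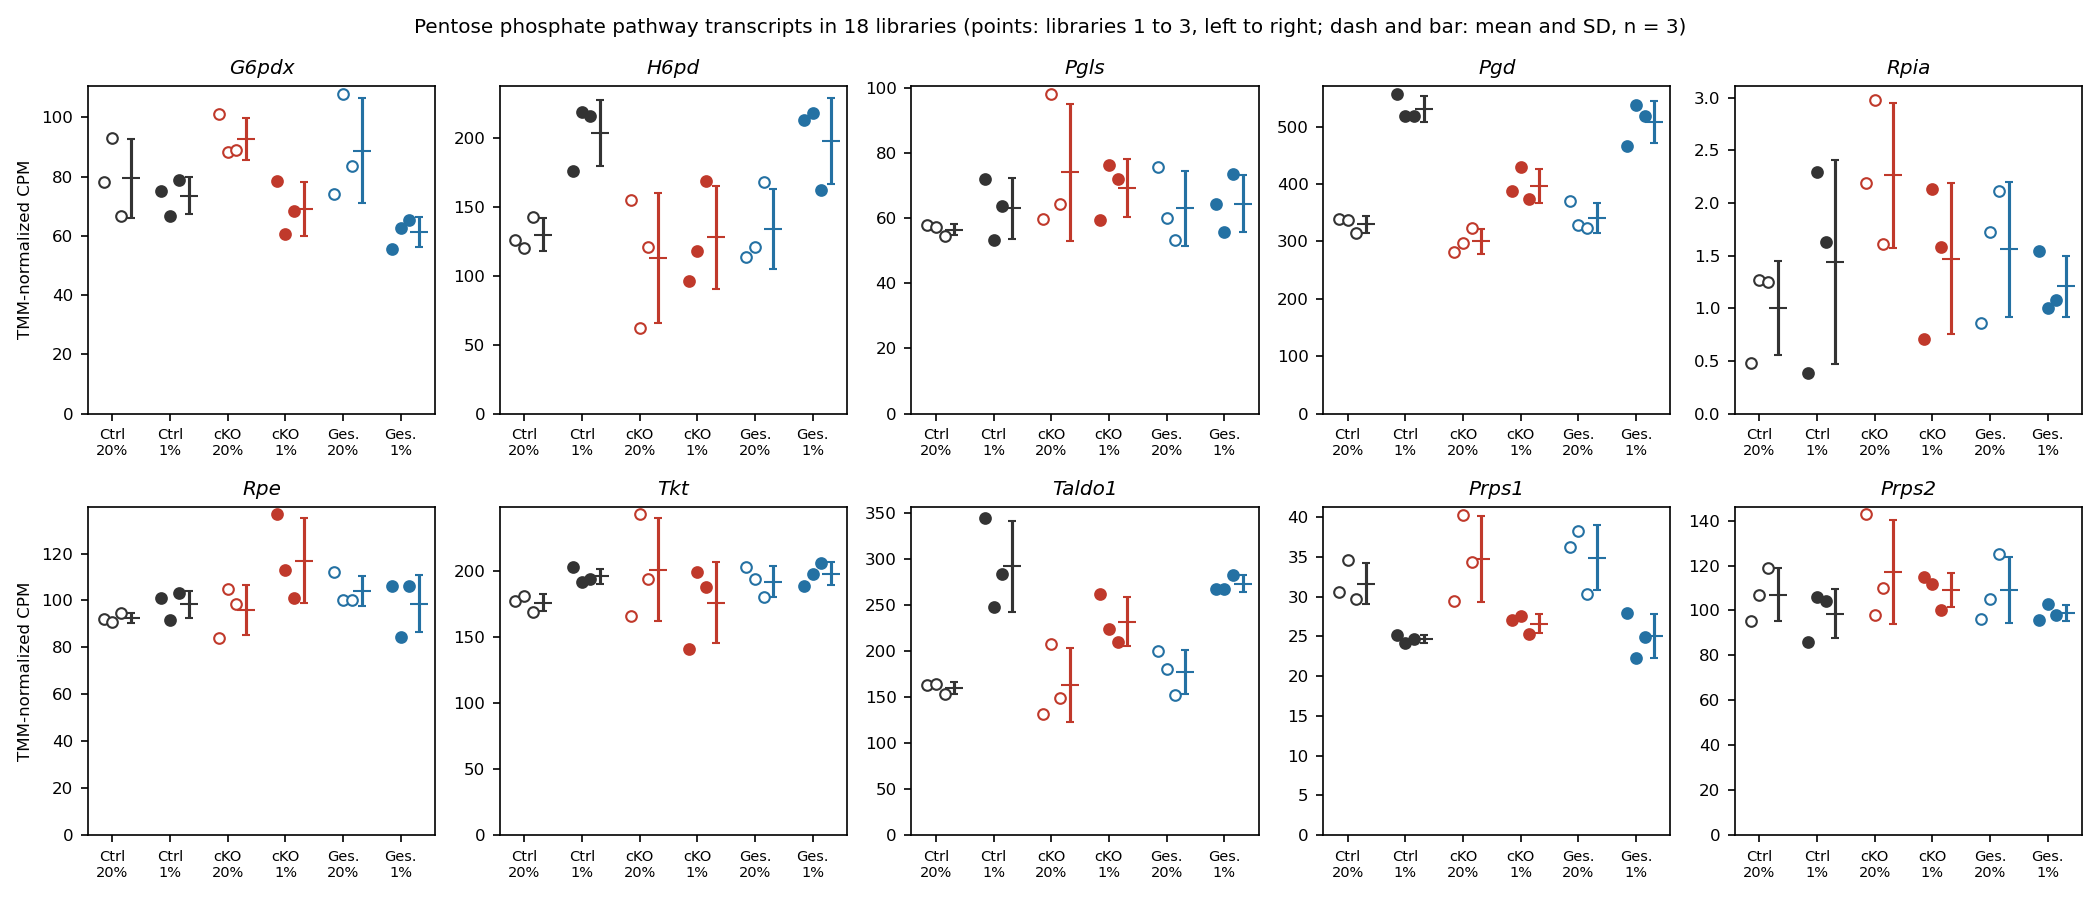
CPM of the 10 pathway genes in each of the 18 libraries, 1 panel per gene with its own axis from 0, open points for 20% O2 and filled points for 1% O2, with the group mean ± SD beside them. *Pgd* and *Taldo1* are higher in 1% O2 without overlap in all 3 arms, *Prps1* is lower without overlap in all 3 arms, and *Pgls*, *Rpe* and *Prps2* overlap between O2 levels in every arm.

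In the non-oxidative branch the change was in *Taldo1*, which moves a 3-carbon unit between sugar phosphates. Ctrl TFs had 163, 164 and 153 CPM in 20% O2 and 345, 248 and 284 CPM in 1% O2. The cKO TFs had 132, 208 and 149 CPM against 262, 224 and 210 CPM, and gesicle-treated TFs had 200, 180 and 152 CPM against 267, 268 and 283 CPM. As with *Pgd*, all 9 libraries in 1% O2 were above all 9 in 20% O2, although cKO replicate 2 in 20% O2 came within 2 CPM of the lowest hypoxic library. The rise was called in Ctrl TFs (0.87 ± 0.16 SE, 1.83-fold, adjusted p = 0.00593) and in gesicle-treated TFs (0.62 ± 0.16 SE, 1.54-fold, adjusted p = 0.049), and missed the threshold in cKO TFs (0.51 ± 0.16 SE, adjusted p = 0.0857). Without Ctrl replicate 1 in 1% O2 the Ctrl value was 0.69 (adjusted p = 0.055), and without cKO replicate 2 in 20% O2 the cKO value was 0.72 (adjusted p = 0.0103). The gesicle pass lay at the threshold and held in 4 of the 18 fits that each left out 1 library. The average was called (0.67 ± 0.09 SE, 95% interval 0.47 to 0.86, 1.59-fold, adjusted p = 0.000126) and passed in all 18 of those fits.

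*Tkt*, the transketolase that shares substrates with transaldolase, did not pass in any comparison. It ranged from 141 to 243 CPM, with both extremes among cKO libraries, and its averaged difference was 0.00 with a 95% interval of −0.16 to 0.17. In Ctrl TFs its 3 libraries in 1% O2 (203, 192 and 194 CPM) were above the 3 in 20% O2 (177, 181 and 169 CPM), a separation of 0.16 that did not pass (adjusted p = 0.601). The number of *Taldo1* counts per *Tkt* count was 0.770 to 0.983 in 20% O2 and 1.12 to 1.86 in 1% O2, without overlap across the 18 libraries. In Ctrl TFs in 20% O2 this ratio was 0.910 ± 0.007 (SD, n = 3), and in 1% O2 it was 1.48 ± 0.21.

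**Figure D3:**
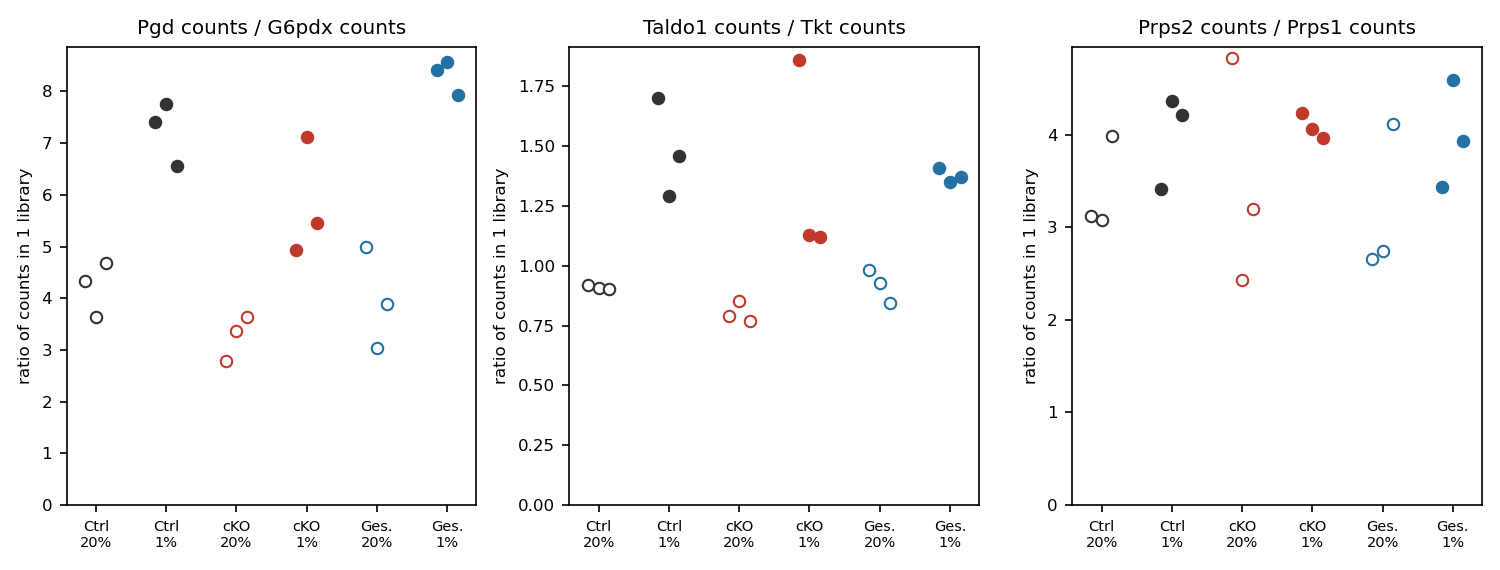
Ratios of counts within each library (Pgd to G6pdx, Taldo1 to Tkt, Prps2 to Prps1) by arm and O2 level, open points for 20% O2 and filled points for 1% O2, with axes from 0. The Taldo1 to Tkt ratio lies at 0.770 to 0.983 in every library in 20% O2 and at 1.12 to 1.86 in every library in 1% O2, while the Prps2 to Prps1 ratios overlap.

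*Rpe*, the epimerase that makes xylulose 5-phosphate, ranged from 84.2 to 137 CPM, and none of its O2 responses passed (0.09 in Ctrl, 0.28 in cKO, −0.08 in gesicle-treated TFs and 0.10 on average, adjusted p from 0.204 to 0.799). Its highest value came from the shallowest library. *Kansl1l* contains 15.4% of the 50-base windows of *Rpe* and rose in 1% O2 (0.49, adjusted p = 0.00826). *Rpia* was measured by 5 to 117 counts a library (0.386 to 2.98 CPM), so its responses of 0.52, −0.53 and −0.37 in Ctrl, cKO and gesicle-treated TFs had 95% intervals of −0.64 to 1.69, −1.68 to 0.63 and −1.52 to 0.77. Each of these intervals holds a 1.5-fold change in either direction. The averaged difference was −0.12, and its 95% interval of −0.79 to 0.54 leaves out a 1.5-fold rise but not a fall of that size.

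Of the PRPP synthetases, which make the activated ribose for purines, pyrimidines and NAD, *Prps1* fell and *Prps2* did not pass. *Prps1* stood at 30.6, 34.6 and 29.7 CPM in 20% O2 and at 25.2, 24.2 and 24.7 CPM in 1% O2 in Ctrl TFs. In cKO TFs it stood at 29.5, 40.3 and 34.3 CPM against 27, 27.6 and 25.3 CPM, and in gesicle-treated TFs at 36.2, 38.3 and 30.3 CPM against 27.9, 22.3 and 24.9 CPM. All 9 libraries in 1% O2 (22.3 to 27.9 CPM) were below all 9 in 20% O2 (29.5 to 40.3 CPM), as for 0.952% of all genes tested. The 3 arms gave −0.36 (adjusted p = 0.157), −0.38 (0.114) and −0.48 (0.0603), none of them past the threshold, and the average passed (−0.41 ± 0.08 SE, 95% interval −0.57 to −0.25, adjusted p = 0.00132). With all libraries thinned to the smallest total the average was −0.38 and no longer passed (adjusted p = 0.0746). The retrocopy *Prps1l3*, at a similar level (20.5 to 40.2 CPM), contains 9.93% of the 50-base windows of *Prps1*, and with the counts of both genes summed, an alternative added after the data were seen, the average was −0.33 (adjusted p = 0.00241). *Prps2* ranged from 86.0 to 143 CPM, with an averaged difference of −0.12 (95% interval −0.29 to 0.06, adjusted p = 0.308). There were 2.43 to 4.83 *Prps2* counts per *Prps1* count in 20% O2 and 3.42 to 4.59 in 1% O2.

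Counted over the pathway, 2 of the 10 members were called in Ctrl TFs, where 2.68% of all genes tested were, and the same 2 passed, beside 3.22% of all genes. In cKO TFs 0 of 10 were called by edgeR, against 3.01% of all genes, and 0 of 10 by DESeq2. By edgeR 1 of 10 passed there against 3.94% of all genes, and 5 of 10 had an unadjusted p under 0.05 against 21.0% of all genes. In gesicle-treated TFs 1 of 10 was called against 2.41% of all genes and 2 of 10 passed against 2.92%. In the average 1 of 10 was called, close to the 10.5% of all genes, and 5 of 10 passed against 24.6% of all genes, with 3 higher (12.9%) and 2 lower (11.7%). Groups that did not overlap were more common than calls. In Ctrl TFs 4 members were higher in 1% O2 without overlap (*H6pd*, *Pgd*, *Tkt*, *Taldo1*) and 1 was lower (*Prps1*), beside 16.4% and 13.3% of all genes. In cKO TFs 2 were higher (*Pgd*, *Taldo1*) and 2 lower (*G6pdx*, *Prps1*), beside 10.3% and 10.2% of all genes, and in gesicle-treated TFs the same 2 were higher and the same 2 lower, beside 13.0% and 11.0%. The median log2 fold change over the 10 members was 0.16 in Ctrl, −0.10 in cKO and −0.02 in gesicle-treated TFs, beside −0.01, −0.04 and −0.02 over all genes. The 9 same-numbered pairs agreed in sign for *Pgd* and *Taldo1* (higher, as for 8.30% of all genes) and for *Prps1* (lower, as for 6.55%).

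**Figure D4:**
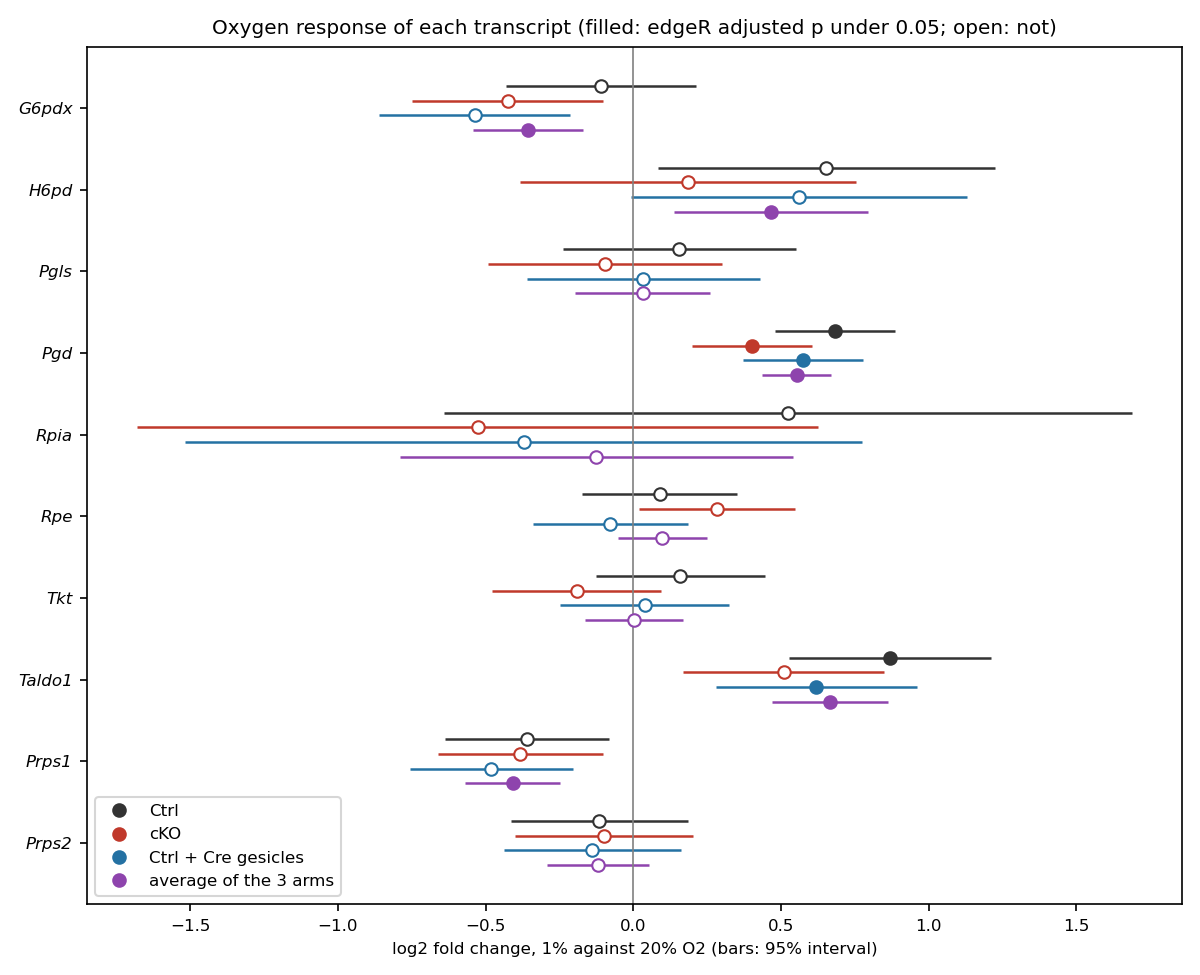
Log2 fold change of each pathway gene in 1% against 20% O2 in Ctrl, cKO and gesicle-treated TFs and averaged over the 3 arms, with 95% intervals as bars and filled points where the adjusted p was under 0.05 (edgeR, 18 libraries). The intervals of *Pgd*, *Taldo1* and *H6pd* lie above 0 and those of *G6pdx* and *Prps1* below 0 in the average, and the intervals of *Rpia* are the widest.

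The difference of the O2 response between arms was tested for each member as an interaction. For cKO against Ctrl TFs 0 of 10 members passed (adjusted p = 1 for each) and 0 had an unadjusted p under 0.05, with 0 of the 16174 genes called by edgeR (442 at an unadjusted p under 0.05) and 0 by DESeq2. The *Pgd* response was smaller by 0.28 in cKO TFs (95% interval of the difference −0.57 to 0.01, unadjusted p = 0.0545), the *Taldo1* response by 0.36 (−0.84 to 0.12), and that of *Prps1* differed by −0.02 (−0.42 to 0.37). These intervals reach from no difference to most of the response itself for *Pgd* and *Taldo1*. For gesicle-treated against Ctrl TFs 0 of 10 members passed and 0 had an unadjusted p under 0.05, with 0 genes called by edgeR (243 at an unadjusted p under 0.05) and 0 by DESeq2. There the smallest p among the members was that of *G6pdx*, whose response differed by −0.43 (−0.88 to 0.03, unadjusted p = 0.0649). The *Pgd* and *Taldo1* responses differed by −0.11 (−0.39 to 0.18) and −0.25 (−0.73 to 0.23). Both differences use the same Ctrl libraries.

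At a fixed O2 level the genotype comparison gave 0 of 10 members called or passed in 20% O2, where 0.538% of all genes were called, with 1 member (*Rpia*) at an unadjusted p under 0.05, beside 15.3% of all genes, and 0 past the adjusted p by DESeq2. *Taldo1* differed by 0.03 (95% interval −0.31 to 0.37) and *G6pdx* by 0.22 (−0.10 to 0.55). In 1% O2 0 of 10 members passed by edgeR, where 0.0866% of all genes were called, and 2 of 10 (*H6pd* and *Pgd*) had an unadjusted p under 0.05, near the 17.8% of all genes. *Pgd* was at 374 to 430 CPM in cKO and 518 to 557 CPM in Ctrl TFs without overlap, as were 15.0% of all genes in this direction, with a difference of −0.42 ± 0.10 (SE, adjusted p = 0.103). With DESeq2 the same difference was −0.41 and passed (adjusted p = 0.00242). *H6pd* was at 96.2 to 169 CPM in cKO and 176 to 219 CPM in Ctrl TFs (−0.67, adjusted p = 0.237). *Taldo1* differed by −0.33 (−0.67 to 0.01, adjusted p = 0.286).

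Gesicle-treated against untreated Ctrl TFs gave 0 of 10 members called or passed at either O2 level (0 at an unadjusted p under 0.05 and 0 by DESeq2 in both). In 20% O2 all 10 members were nominally higher with gesicles, by 0.03 to 0.65, with adjusted p = 1 for each, and 0.0247% of all genes were called. In 1% O2 the differences ran from −0.27 (*G6pdx*) to 0.03 with 0 genes called by edgeR or DESeq2 (324 at an unadjusted p under 0.05). The 95% intervals for *Pgd* were −0.16 to 0.25 in 20% O2 and −0.27 to 0.14 in 1% O2, which leave out a 1.5-fold change, and those of *Taldo1* (−0.19 to 0.49 and −0.44 to 0.24) do so too. Same-numbered gesicle and Ctrl libraries deviated together from their group means, and no member passed in the fit blocked on that number either.

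The genes most like *Taldo1* over the 18 libraries, by Pearson correlation of log2 CPM, were the glycolytic enolase *Eno1* (0.97), *Smyd4* (0.96) and *Procr* (0.96). With each group's mean removed, these correlations were 0.90, 0.91 and 0.80. On the same scale *Taldo1* and *H6pd* deviated in opposite directions within groups (r = −0.91 over 18 libraries), while the group means of both were higher in 1% O2 in each arm. *Tkt* and *Pgls* deviated together (r = 0.81). These are descriptions over libraries that share groups and replicate numbers, with no test.

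Other genes around the pathway were counted from lists. Of 25 neighbouring genes of glycolysis, ribose and sugar acid metabolism, 17 were tested in the average, and 7 rose and 2 fell, beside 12.9% and 11.7% of all genes. The rise was called for 5, led by *Aldoc* (2.38) and *Aldoa* (1.23), aldolases, and *Pfkl* (2.18), a phosphofructokinase, whose substrates the non-oxidative branch shares. *Shpk*, the kinase that makes sedoheptulose 7-phosphate, a substrate of transaldolase, fell (−0.77, adjusted p = 0.000436). *Prpsap1* and *Prpsap2*, which bind the PRPP synthetases, were at 0.12 and 0.13 and did not pass. Of 7 PRPP users 6 were tested, and 1 rose and 2 fell, none by 1.5-fold. The smallest adjusted p was that of *Naprt*, an enzyme of NAD synthesis, which rose (0.44, adjusted p = 0.000882). Between genotypes, 1 of the 17 tested neighbouring genes was called in 1% O2, beside 0.0866% of all genes, and none in 20% O2. This was *Pfkl*, lower in cKO than in Ctrl TFs (log2 fold change −0.72, edgeR adjusted p = 0.0238).

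Of 10 other NADPH-making enzymes, 1 rose and 3 fell in the average, where 12.9% of all genes rose and 11.7% fell. *Me1*, cytosolic malic enzyme, rose by 0.56 (adjusted p = 3.35e-05), and *Aldh1l2*, the mitochondrial 10-formyltetrahydrofolate dehydrogenase, fell by 0.62 on the log2 scale (adjusted p = 0.0334), the only one called. Of 10 NRF2 targets outside the pathway, *Me1* among them again, 8 rose and 0 fell, with a median of 0.61, led by *Hmox1* (1.78), *Nqo1* (1.65) and *Gclm* (1.31). All 10 hypoxia markers rose, with a median of 2.16, led by the lactate exporter *Slc16a3* (5.93), *Ndufa4l2* (5.37) and *Ankrd37* (3.06), and their summed level was 1070 to 1480 CPM in 20% O2 and 2620 to 4100 CPM in 1% O2.

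Proliferation genes and cell type markers were measured beside these responses, and their part in the results was not tested. Of 10 proliferation genes 0 passed by edgeR in the average (median −0.37, *Mki67* −0.87, adjusted p = 0.0561), and their summed level overlapped between O2 levels in Ctrl TFs (484 to 809 against 445 to 628 CPM) and gesicle-treated TFs (439 to 880 against 446 to 681 CPM) but not in cKO TFs (426 to 517 against 349 to 382 CPM). Of the 9 tendon fibroblast markers *Fmod* rose and *Dcn* fell. Of 4 endothelial markers, *Pecam1* and *Cdh5* stayed at or under 0.65 CPM, and *Kdr* and *Tek* fell (*Kdr* with at most 25 counts a library). The 4 summed to 11.5 to 76.6 CPM, and the median log2 fold change of the 2 tested was −2.48 in the average. Of 3 mural markers *Rgs5* rose and *Notch3* fell, and their summed level was 19.3 to 102 CPM. Of 5 macrophage markers 3 were tested and 0 passed, with *Ptprc* and *Adgre1* at or under 0.162 CPM, and the 5 summed to 10.6 to 25.4 CPM. Of 4 muscle markers *Pax7* was at 0 in every library, the 1 tested (*Des*) did not pass, and the 3 keratinocyte markers summed to at most 0.181 CPM. The adipocyte marker *Fabp4* rose from a low level, with the 3 adipocyte markers summing to 1.53 to 6.97 CPM over all libraries. Between genotypes, 1 of the 9 tendon fibroblast markers was called higher in cKO than in Ctrl TFs at each O2 level. In 20% O2 1 of the 10 proliferation genes was called lower in cKO TFs. Of all genes, 0.538% were called in 20% O2 and 0.0866% in 1% O2. In bulk RNA, fewer cells of a type and less RNA per cell cannot be told apart.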

How the data were processed

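Poly-A RNA-seq of mouse tail TFs was used, 18 libraries in 6 groups of 3 set by the labelled genotype, O2 and gesicles. Trimming, alignment to GRCm38 by STAR and quantification by RSEM 1.3.3 were done by the authors, who deposited estimated counts per gene as unnormalized whole numbers. The strand setting is not given in the sources used here, so reads of overlapping genes may not be told apart. The labels give 10% serum in the culture medium, and the study's text differs on this. Of 55491 rows, filterByExpr kept 16174.

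Counts were fitted with edgeR 4.0.16 over all 18 libraries with TMM factors, a mean for each group and the quasi-likelihood F test, in R 4.3.3. Differences passed at a Benjamini-Hochberg adjusted p under 0.05 over all genes tested and were called with a fold change of at least 1.5. SE was taken as the difference on the log2 scale over the root of F, intervals are 95%, and SD is over libraries. The averaged response weighs the 3 arms equally. Its fit treats all 18 libraries as independent, although same-numbered Ctrl and gesicle libraries deviated together. Sharing between arms at the same O2 level would make its SE and adjusted p too small, and sharing between O2 levels too large. The net direction was not tested. All 10 members were named in every comparison. Context genes were named as up to 3 called in the average with the largest change, or the 1 with the smallest adjusted p, and a few others (*Prpsap1*, *Prpsap2*, *Ikbkg*, *Kansl1l*, *Fam129c*, *Prps1l3*, marker genes) were chosen after their values were seen. Members and lists were chosen with earlier results of these data known. Nothing in the labels ties libraries to single mice, so p-values measure the spread between libraries, which may be partly technical. No pair of libraries was a copy of another (smallest chi-square per degree of freedom 14.1). The fit was tested on simulated data. Gene positions came from GENCODE M21 and promoters from RefSeq (GRCm38.p6), which matched all 10 members. Shared sequence was counted as 50-base windows of a gene's transcripts found in another gene's.

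Same-numbered libraries deviated from their group means together in every pair (correlation over genes above 0.1) for Ctrl TFs in 20% and 1% O2 (mean 0.343) and for gesicle-treated against Ctrl TFs in 20% (0.404) and 1% O2 (0.246). There the number was read as pairing, from these data and not from the labels, and a replicate block changed no member's call in those comparisons. It did not meet this rule for the cKO O2 response (lowest 0.092), the gesicle O2 response (−0.006) or cKO against Ctrl. Alternatives were DESeq2 1.42.0 with and without the block, RLE size factors, 2 other filters, the replicate block overall and within arms, fits of fewer libraries, *Xist* as a covariate, thinning to 6857558 counts, other call rules and each library left out. Leaving out the cKO libraries numbered 1 and summing *Prps1* with *Prps1l3* were added after the data were seen.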

Additional observations from a re-analysis of the deposited data

Results flagged for a closer look

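Counts of the transgene sequences, which no comparison used, were above the Ctrl libraries in some groups. Cre had 15 counts summed over the 6 cKO libraries (in 5 of 6, at most 5 in 1 library), against 0 in the 6 Ctrl libraries. The eGFP sequence had 14 counts over the cKO libraries (in 5 of 6, at most 5). The tdTomato sequence had 8 counts over the 6 gesicle libraries (in 5 of 6, at most 3). With 3 libraries a group, no test for a library far from its group was run.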

How the results depend on the processing

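Apart from leaving out single libraries, 1190 values of single members were recomputed: 1133 kept their direction and side of the threshold, 14 no longer passed, 12 newly passed, and 31 changed sign without passing before or after, among them *Rpia* in the gesicle O2 response (−0.37, and 0.36 when thinned) and in its difference from Ctrl (−0.90 and 0.09). The number of members called in the gesicle O2 response was 1, and 0 with RLE size factors, the replicate block, the block within arms or only the groups compared, and 2 with no fold minimum. Members past the adjusted p there were 2, and 1 with RLE, the replicate block, the block within arms or thinning, 0 with only the groups compared, and 4 with *Xist* as a covariate and with DESeq2 with or without the block. For the cKO O2 response the 1 past the adjusted p became 0 with no filter, the block within arms, only the groups compared, 12 libraries, thinning, or the cKO libraries numbered 1 left out (chosen after seeing the data), and 2 with DESeq2 with or without the block, and 1 was called with no fold minimum. In the average 1 was called, against 5 with no fold minimum and 2 when thinned. *H6pd* in the average was 0.49 (adjusted p = 0.05) with the replicate block within arms. For cKO against Ctrl 1 was called at each O2 level by unadjusted p with 1.5-fold, and in 1% O2 1 passed with DESeq2 with or without the block. Leaving out each library, members called ranged from 1 to 2 in Ctrl, 0 to 1 in cKO and 0 to 2 in gesicle-treated TFs and stayed at 1 in the average, and members past the adjusted p from 1 to 2, 0 to 2, 1 to 3 and 4 to 5, with 0 in all 6 other comparisons. The causes were not tested. The replicate numbers did not meet the pairing rule between the cKO or the gesicle O2 groups, although each gesicle group met it against Ctrl TFs. With the replicate block no other member's call changed in edgeR beyond those given.

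Counts over all genes moved more. DESeq2 called 758, 893 and 728 genes in the Ctrl, cKO and gesicle O2 responses, against 434, 487 and 390 (854, 1003 and 853 with the block), and 407, 239 and 47 for cKO against Ctrl in 20% and 1% O2 and gesicles in 20% O2, against 87, 14 and 4 (504, 279 and 60 with the block, with 4 and 5 for the differences of the response and 1 for gesicles in 1% O2). Thinned, these were 137, 167 and 103, 807 against 1697 in the average, and 6 and 1 for cKO against Ctrl. The edgeR block gave 140 and 33 for cKO against Ctrl, no filter 167, 52 and 23, *Xist* 133, 50 and 0, 12 libraries 55 and 6, and only the groups compared 84 and 120 for the cKO and gesicle O2 responses and 1, 0 and 1. Without the cKO libraries numbered 1 there were 150 in the cKO O2 response. Leaving out 1 library gave 204 to 549, 253 to 1117 and 148 to 504 for the O2 responses and 1 to 113, 0 to 69 and 0 to 22. *Rpia* had the fewest counts (5 to 117 a library) and the widest intervals.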
